A study of Mus musculus with 12 samples.

Results

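The RGS genes described here are 10 members of the family that encodes regulators of G-protein signaling, namely *Rgs2*, *Rgs4*, *Rgs7*, *Rgs8*, *Rgs10*, *Rgs12*, *Rgs14*, *Rgs16*, *Rgs17* and *Rgs20*. They were chosen by symbol among the 55471 genes of the count table, and all 10 passed the filter on low counts that left 19578 genes to test. The libraries were made from primary wild-type mouse hippocampal neuron cultures. Both groups received an LNA gapmer, a short antisense oligonucleotide that leads RNase H to cut its target RNA, packed in lipid nanoparticles at day in vitro (DIV) 7, and RNA was collected at DIV 10. The control group received a negative control gapmer and the *Neuid* KD group a gapmer against *Neuid* (Gm10419), a long non-coding RNA of neurons, with 6 libraries in each group. The labels do not say whether the libraries of a group came from separate cultures, so that the p-values measure the spread between these libraries, which may be technical.

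Receptors coupled to heterotrimeric G proteins make the G alpha subunit exchange GDP for GTP. RGS proteins bind the active G alpha subunit and speed up its hydrolysis of GTP, so that the signal ends sooner. The family is divided by sequence into subfamilies. R4 proteins (*Rgs2*, *Rgs4*, *Rgs8*, *Rgs16*) are small and consist of little more than the RGS domain. R7 proteins (*Rgs7*) are stable only in a complex with the G beta subunit encoded by *Gnb5*. The R12 subfamily joins the short *Rgs10* protein with the large scaffolds encoded by *Rgs12* and *Rgs14*, which also bind Ras proteins and inactive G alpha subunits, and RZ proteins (*Rgs17*, *Rgs20*) carry a string of cysteines and act on Gz and Gi subunits.

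The members lie on 5 chromosomes, and 6 of the 10 are on chromosome 1. Promoter windows, the 250 bases before an annotated transcription start in RefSeq on GRCm38.p6 (mm10), were found for 8 members with 11 starts, and not for *Rgs14* and *Rgs20*. The windows of the 3 members that fell in *Neuid* KD and those of *Rgs7* and *Rgs12* (2 starts), which rose, are given here 5′ to 3′ on the strand of the gene, so that the promoters of members that moved in opposite directions can be set side by side. Capitals mark the half-site of the cyclic AMP response element, TGACG or its reverse complement CGTCA, and the TATA box letters TATAAA. The motifs were chosen with these sequences in view. The *Rgs4* window lies at chr1:169747643-169747892 on the minus strand, that of *Rgs16* at chr1:153740103-153740352 on the plus strand, that of *Rgs10* at chr7:128418173-128418422 on the minus strand, that of *Rgs7* at chr1:175492546-175492795 on the minus strand, and those of *Rgs12* at chr5:34949198-34949447 and chr5:34998828-34999077 on the plus strand.
Rgs4: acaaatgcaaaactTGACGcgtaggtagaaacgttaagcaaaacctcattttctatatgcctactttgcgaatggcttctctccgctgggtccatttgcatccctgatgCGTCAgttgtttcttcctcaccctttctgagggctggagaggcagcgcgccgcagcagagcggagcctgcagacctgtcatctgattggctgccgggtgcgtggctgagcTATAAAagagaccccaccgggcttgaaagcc
Rgs16: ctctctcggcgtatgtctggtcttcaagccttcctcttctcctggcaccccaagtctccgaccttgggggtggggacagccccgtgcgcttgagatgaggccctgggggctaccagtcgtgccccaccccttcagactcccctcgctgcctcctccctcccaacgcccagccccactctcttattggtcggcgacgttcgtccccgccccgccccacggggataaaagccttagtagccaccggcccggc
Rgs10: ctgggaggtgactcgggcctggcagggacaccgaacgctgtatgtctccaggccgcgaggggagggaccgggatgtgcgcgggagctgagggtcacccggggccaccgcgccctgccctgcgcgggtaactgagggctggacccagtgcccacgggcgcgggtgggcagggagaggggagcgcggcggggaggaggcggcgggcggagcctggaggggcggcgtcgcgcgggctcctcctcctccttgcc
Rgs7: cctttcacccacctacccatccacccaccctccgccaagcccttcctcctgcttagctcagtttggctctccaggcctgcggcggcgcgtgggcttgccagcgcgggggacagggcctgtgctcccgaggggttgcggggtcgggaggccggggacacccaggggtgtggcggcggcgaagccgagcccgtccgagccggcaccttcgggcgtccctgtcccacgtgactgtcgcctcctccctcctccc
Rgs12, first start: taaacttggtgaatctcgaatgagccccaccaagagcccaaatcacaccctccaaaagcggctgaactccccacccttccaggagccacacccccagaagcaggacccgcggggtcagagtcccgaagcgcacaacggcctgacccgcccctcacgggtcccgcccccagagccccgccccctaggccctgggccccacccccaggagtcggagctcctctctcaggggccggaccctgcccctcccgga
Rgs12, second start: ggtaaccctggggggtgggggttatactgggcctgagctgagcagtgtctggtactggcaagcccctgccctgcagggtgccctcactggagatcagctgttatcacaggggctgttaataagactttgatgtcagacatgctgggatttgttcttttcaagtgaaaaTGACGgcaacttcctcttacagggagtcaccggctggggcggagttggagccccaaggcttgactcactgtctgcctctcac
The *Rgs4* window held 2 half-sites, which begin 236 and 141 bases before the start, and a TATA box that begins 31 bases before it, and 53.6% of its bases were G or C. The windows of *Rgs16*, *Rgs10* and *Rgs7* and the first window of *Rgs12* held neither of these motifs, and their GC content was 66.4%, 76.4%, 72.4% and 68.4%. The second window of *Rgs12* held 1 half-site. A half-site on either strand was also found in *Rgs2* (2 sites) and in 1 of the windows of *Rgs8*, so that 4 of the 11 windows held at least 1, as did 17.8% of all 32851 promoter windows of the same length. TATAAA was found in 1 of the 11 windows, that of *Rgs4*, and in 12.4% of all windows. The GC box letters GGGCGG, searched on both strands and left in lower case, were found in the windows of *Rgs10*, *Rgs16*, *Rgs17* and *Rgs2* and in both of *Rgs12*, but not in those of *Rgs4*, *Rgs7* and *Rgs8*, and in 32.7% of all windows. The E-box letters CAGCTG were found in the second window of *Rgs12* and in 1 window of *Rgs8*, and in 13.0% of all windows. The pair of GC boxes in *Rgs16* share a base, and no other matches overlap. A match of letters is a description of the sequence and not a binding site.

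The total number of reads counted on genes was between 18002585 and 30914714 in control libraries and between 11152556 and 30573480 in *Neuid* KD libraries. *Neuid* was at 25.97 to 31.01 CPM (read counts scaled to library size, with TMM factors) in control libraries and at 6.32 to 9.55 CPM in *Neuid* KD libraries, a log2 fold change of -1.81 (SE 0.0845, adjusted p = 1.32e-10 by the edgeR quasi-likelihood test with Benjamini-Hochberg adjustment). Reads on 1780 chemosensory receptor genes, used as a measure of background, reached 100 CPM or more in 7 libraries, 4 control and 3 *Neuid* KD, and stayed under it in 5.

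At DIV 10, *Rgs4* was lower and *Rgs12* was higher in *Neuid* KD, and both changes exceeded 0.5 on the log2 scale. *Rgs10* and *Rgs16* also fell, and *Rgs7* and *Rgs20* rose by smaller amounts. *Rgs2*, *Rgs8*, *Rgs14* and *Rgs17* did not pass the test. In all, 3 of the 10 members rose and 3 fell at an adjusted p under 0.05, while 6.31% of all tested genes rose and 2.42% fell. With an absolute log2 fold change above 0.5 as well, 1 member rose and 1 fell, beside 2.44% and 0.792% of all tested genes. The control and *Neuid* KD libraries did not overlap in 4 of the 10 members, *Rgs4*, *Rgs10*, *Rgs12* and *Rgs20*, beside 5.7% of all tested genes. The median log2 fold change of the members was -0.17 (range -0.59 to 0.77), and that of all tested genes was -0.03.

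**Figure D1:**
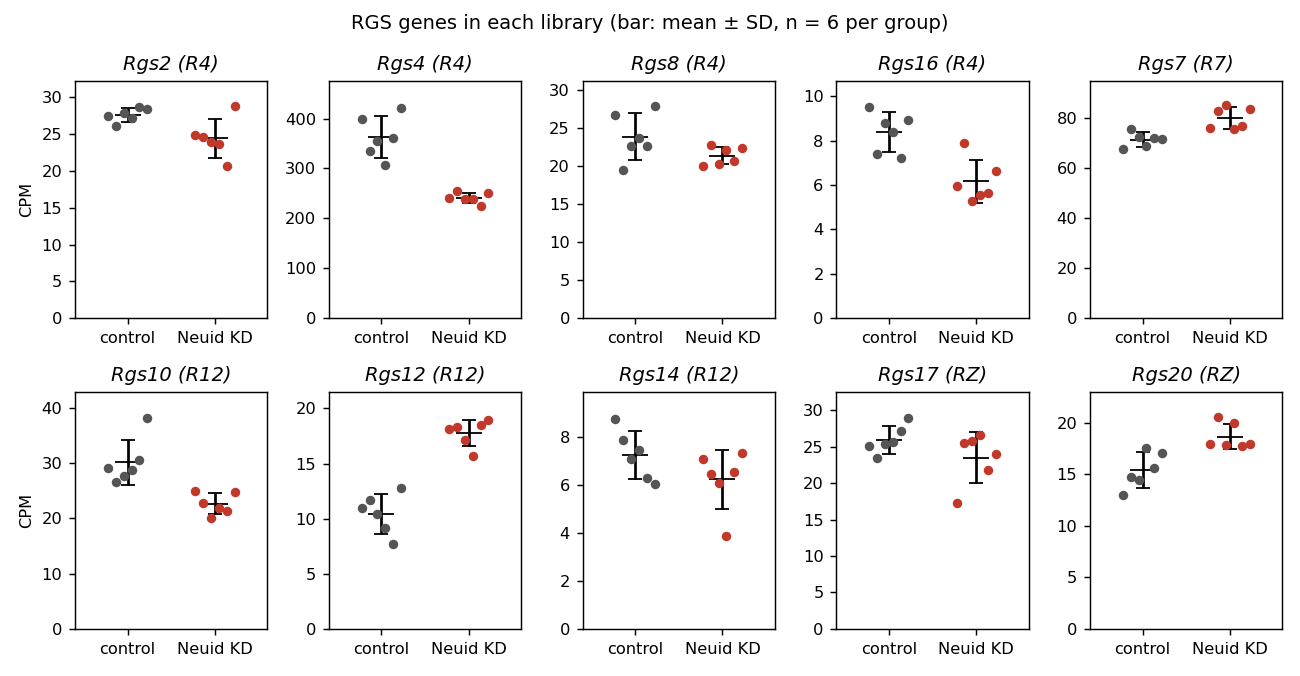
CPM of the 10 RGS genes (vertical axes from 0) in the 6 control libraries (grey) and the 6 *Neuid* KD libraries (red), 1 point per library, with bars for the mean and SD. The groups do not overlap for *Rgs4* and *Rgs10*, which were lower in *Neuid* KD, nor for *Rgs12* and *Rgs20*, which were higher.

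Among the R4 genes, *Rgs4* encodes a regulator of Gi, Go and Gq subunits that is abundant in cortical and hippocampal neurons. The gene (ENSMUSG00000038530) lies on chromosome 1 from 169741477 to 169747642 on the minus strand of GRCm38 and overlaps no other annotated gene. It was at 306.9 CPM in the lowest, 358 in the median and 422.1 in the highest control library, and at 225, 239.9 and 254 CPM in *Neuid* KD. Every *Neuid* KD library was below every control library, and the spread was also narrower in *Neuid* KD (SD 10.3 CPM against 42.0, n = 6 per group). The mean fell to 66.5% of the control level, a log2 fold change of -0.59 (SE 0.0677, 95% interval -0.73 to -0.45, edgeR adjusted p = 1.02e-05, and p = 0.00216 by an exact two-sided permutation test, the lowest value that 6 against 6 allows). It was -0.61 when fitted on the 7 libraries with at least 100 CPM of background alone and -0.58 on the 5 under it. When GC content and length trends were fitted to the log2 CPM of each library, an alternative chosen after seeing the data, it was -0.53 with adjusted p = 0.0428 at a prior count of 2 and -0.52 with adjusted p = 0.054 at a prior count of 0.5.

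*Rgs16*, another regulator of Gi and Gq subunits, lies 40 kb from *Rgs8* on chromosome 1, from 153740349 to 153745468, and overlaps the antisense gene Gm28513. Reads of *Rgs16* and Gm28513 cannot be told apart where they overlap, as the strand setting of the counting is not given. *Rgs16* was at 7.22, 8.59 and 9.50 CPM (lowest, median and highest) in control and at 5.29, 5.80 and 7.88 CPM in *Neuid* KD. The groups overlapped through *Neuid* KD replicate 2, which at 7.88 CPM was above 2 control libraries. *Rgs16* fell to 73.6% of the control mean (log2 fold change -0.44, SE 0.107, edgeR adjusted p = 0.0137). The call was lost in the libraries of at least 100 CPM of background (-0.48, adjusted p = 0.0615), in those under it (-0.39, adjusted p = 0.169), with the replicate block together with GC and length offsets (-0.40, adjusted p = 0.063) and with the trends of log2 CPM, where it was -0.35 at a prior count of 2 (adjusted p = 0.423) and -0.34 at 0.5 (adjusted p = 0.482).

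*Rgs2*, whose protein acts above all on Gq subunits and whose transcript is induced by neuronal activity, was at 26.1, 27.7 and 28.7 CPM in control and at 20.6, 24.3 and 28.9 CPM in *Neuid* KD. The highest of all 12 libraries was a *Neuid* KD library, and so was the lowest. Its log2 fold change of -0.18 (95% interval -0.32 to -0.04) did not pass the test (edgeR adjusted p = 0.112). It did with DESeq2 (-0.20, adjusted p = 0.0209), with DESeq2 and 1 RUVs factor (-0.20, 0.0252), with upper-quartile normalization (-0.24, 0.0236), in the libraries under 100 CPM of background (-0.26, 0.0414), and without *Neuid* KD replicate 6 (-0.27, 0.00809) or replicate 1 (-0.23, 0.0432). *Rgs8*, which encodes a regulator of Gi and Go subunits, was at 19.5, 23.2 and 27.9 CPM in control and at 20.04, 21.4 and 22.7 CPM in *Neuid* KD. All *Neuid* KD libraries lay within the range of the control libraries, and the log2 fold change was -0.15 (95% interval -0.31 to 0.01, edgeR adjusted p = 0.305).

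After the group mean was taken from the log2 CPM of each library, Pearson's r over the 12 libraries was between 0.32 (*Rgs2* and *Rgs8*) and 0.71 (*Rgs4* and *Rgs8*) for the pairs of R4 genes. Pairs across subfamilies reached similar values, with 0.64 between *Rgs4* and *Rgs10* and 0.43 between *Rgs4* and *Rgs12*, and the lowest r among all pairs of members was -0.59, between *Rgs14* and *Rgs17*. These are descriptions over libraries that share depth and background. With the log2 background, the within-group r was -0.11 for *Rgs4*, 0.22 for *Rgs16* and 0.07 for *Rgs8*, and it was farthest from 0 for *Rgs17* (-0.60) and *Rgs14* (0.57).

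The R7 member, *Rgs7*, encodes a neuronal regulator of Go that works in a complex with the product of *Gnb5*. It spans chromosome 1 from 175059087 to 175492500 on the minus strand. Its libraries were at 67.8, 72.0 and 75.8 CPM in control and at 75.6, 79.8 and 85.4 CPM in *Neuid* KD. Only control replicate 2, at 75.8 CPM, reached into the range of the *Neuid* KD libraries. *Rgs7* rose to 112% of the control mean (log2 fold change 0.16, SE 0.0479, 95% interval 0.06 to 0.26, edgeR adjusted p = 0.0428). The log2 fold change stayed positive, but the call was lost whichever of the 12 libraries was left out, with adjusted p between 0.078 and 0.247.

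**Figure D2:**
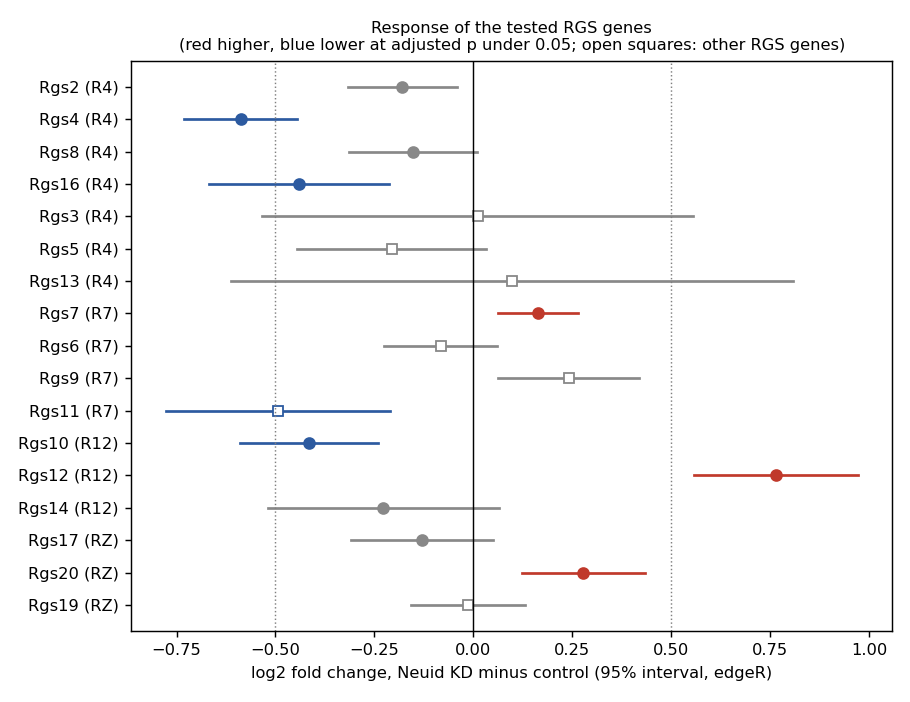
Log2 fold change (*Neuid* KD minus control) with its 95% interval for the 10 members (filled circles) and 7 other RGS genes (open squares), in the order of the subfamilies. Dotted lines mark 0.5 in either direction, red marks genes that rose and blue genes that fell at an adjusted p under 0.05. *Rgs12* and *Rgs4* lie farthest from 0, and *Rgs22*, whose interval from -2.42 to 0.97 would stretch the axis, is left out.

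In the R12 subfamily *Rgs12* rose, *Rgs10* fell and *Rgs14* did not pass the test. *Rgs12* encodes a large scaffold protein with an RGS domain, Ras-binding domains and a GoLoco motif, which holds inactive Gi subunits. The gene (ENSMUSG00000029101) lies on chromosome 5 from 34949445 to 35039644 on the plus strand and overlaps the antisense gene Gm43791 and the microRNA gene Mir3097. Since the strand setting of the counting is not given, reads of *Rgs12* and Gm43791 cannot be told apart where they overlap. *Rgs12* was at 7.68, 10.7 and 12.8 CPM in control (lowest, median and highest) and at 15.7, 18.2 and 18.99 CPM in *Neuid* KD. No control library reached the lowest *Neuid* KD library. *Rgs12* rose to 170% of the control mean (log2 fold change 0.77, SE 0.0975, 95% interval 0.56 to 0.97, edgeR adjusted p = 3.25e-05, exact two-sided permutation p = 0.00216). Fitted on the libraries with at least 100 CPM of background alone it was 0.74, on those under it 0.87, and the adjusted p was at most 0.000935 in the 28 alternative fits.

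*Rgs10* encodes a short regulator of Gi subunits that is known above all from microglia, where it limits inflammatory signaling, and is also made by neurons. It lies on chromosome 7 from 128373621 to 128418758 on the minus strand. Its libraries were at 26.6, 28.9 and 38.1 CPM in control and at 20.1, 22.4 and 25.0 CPM in *Neuid* KD. The groups did not overlap, and control replicate 6, at 38.1 CPM, stood apart from the other control libraries. *Rgs10* fell to 75.3% of the control mean (log2 fold change -0.41, SE 0.0825, 95% interval -0.59 to -0.24, edgeR adjusted p = 0.00283). Without control replicate 6 the log2 fold change was -0.35 (adjusted p = 0.00288), and with the trends of log2 CPM at a prior count of 2 it was -0.34 and the call was lost (adjusted p = 0.427).

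Microglial markers beside *Rgs10* were low in both groups. The 10 markers summed to between 14.6 and 22.3 CPM in control and between 12.7 and 21.4 CPM in *Neuid* KD, 5 of them passed the filter on low counts, and none rose or fell in edgeR or DESeq2, with 0 at an unadjusted p under 0.05. None of the 10 was at 0 in all libraries. The defining markers *Tmem119* and *P2ry12* were at means of 0.207 and 0.171 CPM in control and of 0.211 and 0.267 CPM in *Neuid* KD, against 30.1 and 22.7 CPM for *Rgs10*.

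*Rgs14* encodes the other scaffold of the subfamily and is known for its expression in CA2 pyramidal neurons, where it restrains synaptic plasticity. It was at 6.01, 7.25 and 8.73 CPM in control and at 3.88, 6.48 and 7.33 CPM in *Neuid* KD. The groups overlapped, and *Neuid* KD replicate 4, at 3.88 CPM, stood below the others. Its log2 fold change of -0.23 (95% interval -0.52 to 0.06) did not pass the test (edgeR adjusted p = 0.441), and it was -0.12 without that library. The 4 markers of CA2 neurons summed to between 90.9 and 105.9 CPM in control and between 77.2 and 91.2 CPM in *Neuid* KD, and 2 of them fell. Their part in the level of *Rgs14* was not tested.

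Of the RZ members, *Rgs20* encodes a regulator of Gz. It lies on chromosome 1 from 4909576 to 5070285 on the minus strand and overlaps *Atp6v1h* on the opposite strand. Its libraries were at 13.0, 15.2 and 17.6 CPM in control and at 17.7, 17.9 and 20.5 CPM in *Neuid* KD. The groups did not overlap, but the highest control library, at 17.58 CPM, lay close to the lowest *Neuid* KD library, at 17.72 CPM. *Rgs20* rose to 121% of the control mean (log2 fold change 0.28, SE 0.0734, 95% interval 0.12 to 0.43, edgeR adjusted p = 0.0229). The call was lost without any 1 of control replicates 2 and 3 and *Neuid* KD replicates 2, 4, 5 and 6, with adjusted p between 0.0538 and 0.113 and log2 fold changes between 0.24 and 0.26, and in the libraries of at least 100 CPM of background (0.20, adjusted p = 0.585). *Atp6v1h* had means of 106.7 CPM (control) and 110.6 CPM (*Neuid* KD, log2 fold change 0.05, adjusted p = 0.707), and since the strand setting of the counting is not given in the sources used here, reads from the 2 strands cannot be told apart.

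*Rgs17*, which encodes a regulator of Gz and Gi subunits, was at 23.4, 25.6 and 29.0 CPM in control and at 17.3, 24.8 and 26.7 CPM in *Neuid* KD. The groups overlapped, and the lowest value came from *Neuid* KD replicate 1. *Rgs17* did not pass the test (log2 fold change -0.13, 95% interval -0.31 to 0.05, edgeR adjusted p = 0.502).

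**Figure D3:**
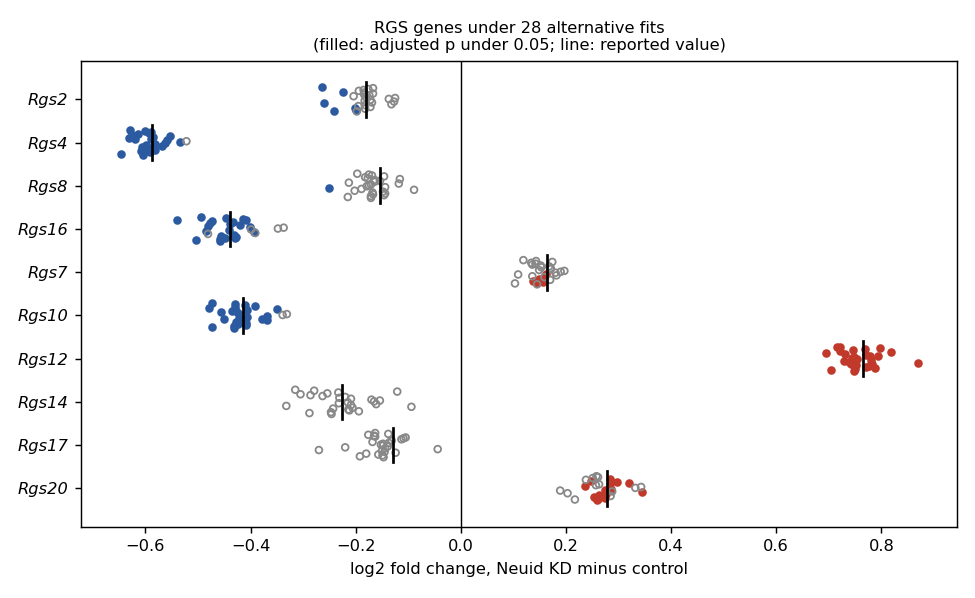
Log2 fold change (*Neuid* KD minus control) of the 10 RGS genes in 28 alternative fits, with 1 point per fit, filled where the adjusted p was under 0.05, and a black line at the reported value. The points of each gene stay on 1 side of 0, those of *Rgs12* are all filled and lie between 0.70 and 0.87, and those of *Rgs4* lie between -0.65 and -0.52 with 27 of 28 filled.

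Set per kb of exon, the RGS genes spanned a wide range of levels. In control, *Rgs4* was at 117.2 ± 13.6 RPKM (CPM per kb of exon, SD, n = 6), followed by *Rgs10* at 17.6 ± 2.42, *Rgs7* at 11.9 ± 0.470 and *Rgs2* at 7.61 ± 0.258. The lowest library of each of these 4 was above the highest library of the next gene in the order. *Rgs20* (3.64 ± 0.405), *Rgs16* (3.58 ± 0.386), *Rgs17* (3.13 ± 0.232), *Rgs8* (2.47 ± 0.318), *Rgs14* (1.71 ± 0.237) and *Rgs12* (1.23 ± 0.215) followed, and each overlapped with its neighbour in the order. In *Neuid* KD, *Rgs4* was at 77.9 ± 3.32 and remained first, *Rgs7* (13.3 ± 0.721) and *Rgs10* (13.3 ± 1.13) came next and overlapped, and *Rgs12*, at 2.10 ± 0.140, stood above *Rgs14*, at 1.47 ± 0.290, without overlap. The sum over the 10 genes was 150.9 to 195.5 RPKM in control and 118.6 to 133.6 in *Neuid* KD, and *Rgs4* held 68.8% ± 1.85 of it in control (SD, n = 6) and 61.4% ± 0.516 in *Neuid* KD (SD, n = 6).

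**Figure D4:**
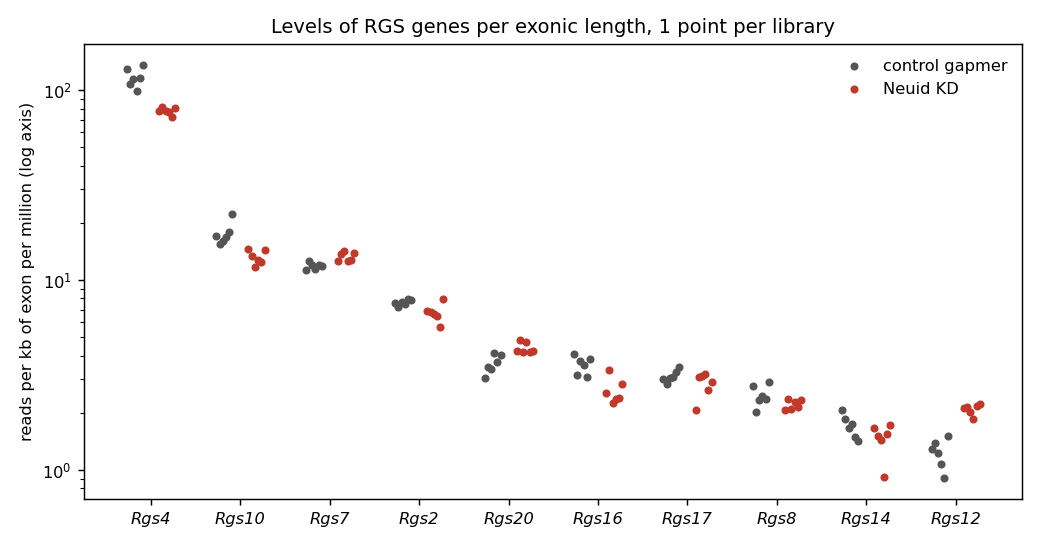
RPKM (log axis) of the 10 RGS genes, ordered by their control mean, with 1 point per library (grey control, red *Neuid* KD). *Rgs4* lies far above the other members in both groups, and *Rgs12*, lowest in control, passes *Rgs14* in *Neuid* KD.

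Of the 11 other RGS genes, 8 passed the filter on low counts, 1 fell and none rose in edgeR (1 was higher at an unadjusted p under 0.05, and 0 rose with DESeq2). *Rgs11*, an R7 gene, was at 13.8 to 18.1 CPM in control and at 5.98 to 14.2 CPM in *Neuid* KD, and the groups overlapped. It fell with a log2 fold change of -0.49 (SE 0.134, edgeR adjusted p = 0.027), and the adjusted p was 0.0519 to 0.0743 in the 6 fits that lost the call when 1 library was left out, which were those without control replicates 2, 3, 4 or 5 or *Neuid* KD replicates 3 or 4. *Rgs11* overlaps *Arhgdig* on the opposite strand. The other R7 genes *Rgs6* (log2 fold change -0.08, edgeR adjusted p = 0.639) and *Rgs9* (0.24, 0.0982), the R4 genes *Rgs3* (0.01, 0.99), *Rgs5* (-0.21, 0.372) and *Rgs13* (0.10, 0.927), the RZ gene *Rgs19* (-0.01, 0.956) and *Rgs22* (-0.73, 0.756) did not pass. *Rgs1*, *Rgs18* and *Rgs21* had at most 18, 6 and 10 reads in a library and were not tested.

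Several of the nearest protein-coding genes on either side of the members that rose or fell were tested as well. *Rgs5*, 45.7 kb from *Rgs4*, and *Rgs8*, 40 kb from *Rgs16*, did not pass the test, and neither did *Ccdc190*, 181 kb from *Rgs4* (log2 fold change 0.04, edgeR adjusted p = 0.921), *Msantd1*, 25.6 kb from *Rgs12* (-0.61, 0.218), *Tial1*, 21 kb from *Rgs10* (0.05, 0.778), or *Tcea1*, 11.7 kb from *Rgs20* (0.03, 0.912). *Fh1*, 107.9 kb from *Rgs7*, did not pass either (0.18, edgeR adjusted p = 0.0605). *Hgfac*, 1.9 kb from *Rgs12*, was not tested.

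By the Pearson correlation of log2 CPM over the 12 libraries, the genes most like *Rgs4* among 15204 candidates were *Rcan2* (r = 0.987), *Lgi2* (0.985), *Dbpht2* (0.97), *Plxnd1* (0.97) and *Nudt4* (0.965). *Rcan2*, which encodes a regulator of calcineurin, fell from 36.3 to 20.5 CPM. The genes most like *Rgs12* were *Rnf180* (0.961), *Adhfe1* (0.96), *Hlf* (0.959), *Nr2e1* (0.955) and *Yap1* (0.95). *Yap1*, the coactivator of the Hippo pathway, rose from 9.47 to 15.7 CPM, and *Nr2e1*, a nuclear receptor of neural stem cells and glia, from 6.89 to 11.8 CPM. These correlations hold the difference between the groups, and the libraries share depth and background.

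Around the RGS genes, 97 genes of the G-protein pathway were tested, of which 11 rose and 6 fell, with a median log2 fold change of -0.05, beside 6.31% and 2.42% of all tested genes. Among the 5 partners of R7 proteins, *Gpr158*, the receptor-like anchor of *Rgs7* at the membrane, rose from 47.0 CPM (SD 5.10, n = 6) to 57.5 CPM (SD 3.39, n = 6, log2 fold change 0.29, edgeR adjusted p = 0.00921), while *Gnb5* (-0.11, 0.304) and the anchor gene *Rgs7bp* (-0.02, 0.904) did not pass the test. Of 14 G alpha genes, 3 rose and none fell. *Gnai2*, a Gi subunit and so a substrate of RGS proteins, rose from 154.6 to 194 CPM (0.33, edgeR adjusted p = 0.000782), *Gna13* from 59.1 to 79.99 CPM (0.44, 7.88e-05) and *Gna12* from 77.1 to 89.5 CPM (0.22, 0.0167). Of 14 G beta and G gamma genes, *Gng12* rose from 26.1 to 58.2 CPM (1.16, 2.58e-10), and *Gnb4* (-0.30, 0.00125) and *Gng13* (-0.66, 0.0122) fell.

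Of 29 genes for receptors coupled to Gi or Gq, 3 rose and 2 fell. The metabotropic glutamate receptor gene *Grm3* rose from 25.5 CPM (SD 2.89, n = 6) to 72.6 CPM (SD 5.24, n = 6, log2 fold change 1.51, edgeR adjusted p = 1.92e-10) and the adrenergic receptor gene *Adra2a* from 16.5 to 19.96 CPM (0.27, 0.00773), while the muscarinic receptor gene *Chrm5* (-0.90, 0.00399) and the somatostatin receptor gene *Sstr4* (-0.47, 0.0213) fell. Of 18 effectors, the phospholipase gene *Plcb1* (0.25, edgeR adjusted p = 0.0101) and the adenylyl cyclase gene *Adcy2* (0.18, 0.0389) rose, and the potassium channel gene *Kcnj9* (-0.41, 0.0031) and *Adcy1* (-0.27, 0.0338) fell. Of 6 genes of the N-degron pathway, which degrades the *Rgs4* and *Rgs16* proteins from their N-terminus, 1 rose, *Metap1* (0.17, edgeR adjusted p = 0.0449), and none fell. None of the 7 receptor kinase and arrestin genes tested passed the test in edgeR (1 higher at an unadjusted p under 0.05, and 1 rose with DESeq2), nor did any of the 4 genes for other GoLoco proteins and chaperones of G alpha (1 higher and 1 lower unadjusted, and 1 fell with DESeq2).

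Some markers of cell types other than neurons differed between the groups in which these RGS genes were compared. All 10 astrocyte markers rose, and their sum was 1687 to 2126 CPM in control and 3073 to 3736 CPM in *Neuid* KD. The 6 markers of oligodendrocyte precursors summed to 98.2 to 120.9 CPM and 252.6 to 295.5 CPM, and 3 of them rose. *Olig1* largely carried this sum, with a knockdown mean of 216 CPM against 78.2 in control, followed by *Olig2* (33.6 against 10.5). The other means differed by fewer CPM, namely *Pdgfra* (9.17 against 6.69), *Lhfpl3* (6.04 against 4.14), *Cspg4* (9.12 against 8.08) and *Sox10* (1.12 against 1.04). The precursor sum is therefore mainly a reading of *Olig1* and *Olig2*. Mural markers summed to 10.7 to 19.4 CPM and 22.4 to 28.4 CPM, with 1 of 6 risen. The mean of *Notch3* went from 6.8 CPM in control to 16.9 CPM in *Neuid* KD, that of *Pdgfrb* from 3.58 to 4.6 CPM and that of *Acta2* from 2.06 to 2.22 CPM. *Kcnj8*, *Abcc9* and *Tagln*, all under 1 CPM, had lower means in *Neuid* KD, so the sum does not stand for the list as a whole. Of the 9 neuron markers 1 fell and none rose, and their sums overlapped (5321 to 6298 and 5174 to 6303 CPM), as did those of inhibitory neurons, endothelial cells and fibroblasts. None of the latter 3 lists held a marker that rose or fell in edgeR, with 1 higher and 1 lower at an unadjusted p under 0.05 and 1 fallen with DESeq2 among the inhibitory neuron markers and 0 in the other lists. In whole cultures, a change in the number of cells of a type and a change in RNA per cell, in either direction, cannot be told apart. The part of these markers in the levels of the RGS genes was not tested.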

How the data were processed

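Total RNA libraries of hippocampal neuron cultures, 6 control and 6 *Neuid* KD, were analysed. The authors aligned single reads to mm10 with STAR, counted them per gene with featureCounts and deposited raw counts without normalization. The strand setting and the annotation release are not given in the sources used here. Where a gene overlaps another on the opposite strand, reads from both strands therefore cannot be told apart. Among the RGS genes this holds for *Rgs8* (antisense gene Gm29529), *Rgs12*, *Rgs16*, *Rgs20* and *Rgs11*, among others. Each library was assigned to its group from its label, and none was left out. The members, gene lists and motifs were chosen with earlier results of these data known.

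Counts were filtered with filterByExpr, scaled with TMM and put to the quasi-likelihood test in edgeR 4.0.16 (R 4.3.3), with group as the only term and Benjamini-Hochberg adjustment over 19578 genes. The study used DESeq2 with RUVSeq, and such a fit (DESeq2 1.42.0, 1 RUVs factor) is among the alternatives. Rose and fell mean an adjusted p under 0.05. Fold changes are on the log2 scale, and correlations used log2 CPM with a prior count of 2. Reads per kb used the exonic length of GENCODE on GRCm38, from which gene positions also came, and promoter sequences came from RefSeq. Named are all members and all other tested RGS genes, up to 4 called genes with the largest change of each pathway list, the nearest protein-coding neighbours of the members (some are not reported here), and the 5 genes most correlated with *Rgs4* and with *Rgs12*. In counts simulated with known changes on these 19578 genes, 44% of genes lowered by 0.5 and 50% of genes raised by 0.5 on the log2 scale were recovered, and 66% and 60% at 1. Alternatives covered normalization, test, filter, background, GC content and length, depth, the replicate number as a block and each library left out in turn.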

Additional observations from a re-analysis of the deposited data

Results flagged for a closer look

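Of 38 sets of 6 libraries (the members, the other tested RGS genes and *Neuid*, in each group), 2 held a library whose gap to its nearest neighbour was larger than Dixon's 95% critical value allows, and chance gives such a gap in about 1 set in 20. *Rgs10* was at 38.11 CPM in control replicate 6, above the next control library at 30.53 CPM and the lowest at 26.57 CPM (ratio 0.657). *Rgs14* was at 3.882 CPM in *Neuid* KD replicate 4, below the next library at 6.083 CPM and the highest at 7.325 CPM (ratio 0.639).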

How the results depend on the processing

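No member changed the sign of its log2 fold change in any of 28 alternative fits. The call of *Rgs12* held in all 28, that of *Rgs4* in 27, *Rgs10* in 26, *Rgs16* in 23, *Rgs20* in 15 and *Rgs7* in 6, while *Rgs2* passed in 6, *Rgs8* in 1, and *Rgs14* and *Rgs17* in none. The number of members that rose was 1 with upper-quartile normalization, with no filter on low counts, in the libraries with at least 100 CPM of background, with GC and length offsets, at equal depth, and above a log2 fold change of 0.5, and 1 to 2 with each library left out. The number that fell was 1 above 0.5 and 3 to 4 with each library left out. With GC and length trends fitted to the log2 CPM of each library, chosen after seeing the data, 1 member rose at a prior count of 2 or 0.5, and 1 and 0 fell. At 0.5, *Rgs4* had an edgeR adjusted p of 0.054, and across all alternatives it was between 2.69e-24 and 0.054. The cause was not tested.

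Of the other RGS genes, 0 fell with GC and length offsets, with the trends of log2 CPM at either prior count and above 0.5, and with each library left out 0 to 1 rose and 0 to 1 fell. Of the pathway genes, 5 rose and 2 fell with no filter and also in the libraries with at least 100 CPM of background, 2 and 2 were past 0.5, 4 rose and 3 fell with the trends of log2 CPM at a prior count of 2 and 5 and 3 at 0.5, and 5 to 12 rose and 4 to 8 fell with each library left out. The number that fell was 19 with upper-quartile normalization, 11 with DESeq2, 10 with edgeR and 1 RUVs factor, 17 with DESeq2 and 1 RUVs factor, 11 at a mean of at least 1 CPM and 16 in the libraries under 100 CPM of background. Of the named pathway genes, *Gna13*, *Gng12* and *Grm3* held their call in all 28 fits, *Adcy2* in 8 and *Metap1* in 7. The log2 fold change of *Neuid* was between -1.93 and -1.74 in the 28 fits and between -1.88 and -1.75 with each library left out.

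Over all genes, 1235 rose and 473 fell in the reported fit, and the counts were 1049 and 1259 with upper-quartile normalization, 1487 and 1000 with DESeq2, 1738 and 982 with 1 RUVs factor in edgeR, 1681 and 1399 in DESeq2, 711 and 229 with no filter, 1496 and 794 at a mean of at least 1 CPM, 1764 and 975 with background as a covariate, 651 and 205 in the libraries with at least 100 CPM of background, 1110 and 799 in those under it, and 630 and 207 or 651 and 200 with the trends of log2 CPM at a prior count of 2 or 0.5. With GC and length offsets 985 genes rose and 443 fell, and at equal depth 1126 and 664. With the replicate number as a block the counts were 1299 and 542, and with the block and GC and length offsets 1061 and 472. With no filter the median log2 fold change of all genes was -0.15.

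Whether equal replicate numbers pair the libraries could not be decided. Of 6 same-numbered pairs, 2 deviated together (r from -0.64 to 0.77) and 2 correlated best with their own number. These were replicates 1 and 3, whose control and *Neuid* KD libraries were also alike in background (595 and 573 CPM, 27.4 and 27.4 CPM). In replicates 2, 4 and 5, where r was negative, the background differed (402 and 72.1, 550 and 50.7, 30.2 and 283 CPM). The check therefore cannot separate a shared culture from a shared background. With the replicate number as a block, 3 members rose and 3 fell, 0 and 1 of the other RGS genes and 13 and 6 of the pathway genes, and with the block and GC and length offsets 2 and 2, 0 and 1, and 9 and 5.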
